A study of Mus musculus with 4 samples.

Results

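DNA methylation was measured at 7 imprinted loci of the mouse, which are the Gnas complex and the loci of Nnat, Mcts2, Zrsr1, Nap1l5, Impact and Inpp5f. Each locus was taken as 1 window of fixed coordinates, and every CpG position in it with at least 5 methylation calls was used. The windows held 452 such positions of 959847 in iPSCs, 552 of 1393990 in NESTIN-GFP precursors, 450 of 909200 in iPSC-DA neurons and 434 of 904699 in mdDA neurons. In each of these 4 libraries the level of a window, which is its methylated calls as a percentage of all its calls, was set against 50%.

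The libraries were made by reduced representation bisulfite sequencing (RRBS), in which DNA is cut at CCGG by the enzyme MspI, so that CpG-rich stretches are read most often. There was 1 library per group. The iPSCs carried the Pitx3 Gfp/+ reporter allele and came from embryonic fibroblasts reprogrammed with retroviral Oct4, Klf4, Sox2 and cMyc. The iPSC-DA neurons were differentiated from Pitx3 Gfp/+ iPSCs and sorted for PITX3-GFP, a reporter of dopaminergic (DA) neurons of the midbrain. The mdDA neurons were sorted for the same reporter from Pitx3 Gfp/+ embryos at E14.5. The NESTIN-GFP precursors carried Nestin Gfp/+, a reporter of neural precursors, and so came from another line than the other libraries. In the study they were differentiated in vitro from iPSCs of that line and collected earlier than the iPSC-DA neurons. Their label calls them neurons, and the methods of the study call them precursors. The sources used here do not say which iPSC clone went into each library. With no replicate in any group, every interval is a Wilson 95% interval that covers counting error only, and every test compares 2 libraries and not 2 conditions. Calls on the same read are linked and PCR copies are not independent, so that intervals are too narrow and p-values too small. The libraries held 31419979 calls in NESTIN-GFP precursors and 68545752 to 79648099 in the others, and the windows of the shallow precursor library rest on far fewer calls.

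An imprinted gene is expressed from 1 parental allele. At its germline differentially methylated region the DNA of 1 parental allele is methylated and that of the other is not, and the difference set in the egg or sperm is kept in the cells of the body through the wave of demethylation after fertilisation. RRBS reads both alleles together, so that a fully kept mark gives intermediate methylation, with about equal numbers of methylated and unmethylated calls. The Gnas complex codes for the alpha subunit of the stimulatory G protein and uses several promoters. In the order of transcription these are the promoter of Nesp, which codes for a secretory protein and is methylated on the paternal allele, the promoters of the antisense RNA Nespas and of the extra-large G protein Gnasxl, and that of exon 1A, all methylated on the maternal allele, and last that of exon 1, from which the G protein itself is made and which is unmethylated on both alleles. The other 6 loci are methylated on the maternal allele. Zrsr1, Mcts2, Nap1l5 and Nnat are short genes lying inside an intron of another gene, and in the RefSeq annotation they lie within Commd1, H13, Herc3 and Blcap. At Inpp5f the mark lies at the promoter of an internal transcript, and at Impact within the gene.

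Of 9 RefSeq promoters of the members, 5 could be placed among the measured positions. A promoter was placed where every position measured in any library fell on 1 of its CpGs and the next best place within 20 kb of the window held at least 3 positions fewer. The Mcts2 and Nnat promoters were placed 4872930 bases apart in the files, the same distance as in RefSeq, and the 2 placed promoters of Gnas were placed 45686 bases apart, again as in RefSeq. The Nnat promoter and the Nesp promoter of Gnas were placed 16724007 bases apart, where RefSeq has 16724242, in another build. The placed promoters are shown because they hold some of the positions behind the levels that follow. The capitals mark each CpG that had at least 5 calls in each DA library. Each holds 300 bases, 250 before and 50 after the start of transcription, 5′ to 3′ on the plus strand of GRCm38.p6.
Gnas, most upstream promoter (Nesp), chr2:174284070-174284369: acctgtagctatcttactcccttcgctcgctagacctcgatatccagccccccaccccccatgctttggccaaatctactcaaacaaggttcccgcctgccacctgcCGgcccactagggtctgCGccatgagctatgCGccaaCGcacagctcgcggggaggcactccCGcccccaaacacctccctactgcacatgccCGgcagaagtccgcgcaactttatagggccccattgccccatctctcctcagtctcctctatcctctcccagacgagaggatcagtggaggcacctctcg
Gnas, exon 1 promoter, chr2:174329756-174330055: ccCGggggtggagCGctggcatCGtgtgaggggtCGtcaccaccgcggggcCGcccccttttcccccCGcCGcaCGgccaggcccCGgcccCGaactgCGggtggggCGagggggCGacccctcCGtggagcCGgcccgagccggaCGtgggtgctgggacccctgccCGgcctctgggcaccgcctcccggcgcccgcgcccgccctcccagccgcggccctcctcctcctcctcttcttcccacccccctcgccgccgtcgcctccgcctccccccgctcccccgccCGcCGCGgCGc
Nnat, chr2:157559828-157560127: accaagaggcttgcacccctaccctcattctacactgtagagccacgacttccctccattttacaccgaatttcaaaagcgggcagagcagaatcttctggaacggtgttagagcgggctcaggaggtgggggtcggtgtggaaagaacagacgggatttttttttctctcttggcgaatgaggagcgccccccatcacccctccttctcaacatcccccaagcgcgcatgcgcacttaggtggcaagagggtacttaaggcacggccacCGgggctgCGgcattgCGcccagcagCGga
Mcts2, chr2:152686898-152687197: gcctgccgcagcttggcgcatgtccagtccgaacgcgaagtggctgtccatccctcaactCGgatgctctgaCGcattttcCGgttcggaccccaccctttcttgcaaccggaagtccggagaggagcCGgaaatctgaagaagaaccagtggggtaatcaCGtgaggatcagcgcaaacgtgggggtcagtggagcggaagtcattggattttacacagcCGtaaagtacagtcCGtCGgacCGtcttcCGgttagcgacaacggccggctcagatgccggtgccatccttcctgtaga
Zrsr1, chr11:22971755-22972054: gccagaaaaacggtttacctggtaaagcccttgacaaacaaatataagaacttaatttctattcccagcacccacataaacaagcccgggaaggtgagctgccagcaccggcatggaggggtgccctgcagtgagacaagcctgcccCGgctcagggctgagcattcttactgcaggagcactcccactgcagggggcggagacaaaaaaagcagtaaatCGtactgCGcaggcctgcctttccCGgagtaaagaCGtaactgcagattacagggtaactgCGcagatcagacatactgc
The exon 1 promoter of Gnas was the most CpG-rich, with 40 CpGs and 6 CCGG sites, and had more CpGs than 96.1% of the 32851 promoters in the table. Its 21 marked CpGs lie mostly in the upstream part of the sequence, with a few at the downstream end. The Mcts2 promoter held 25 CpGs and 7 CCGG sites, the Nnat promoter 17 CpGs and 1 CCGG site, the Nesp promoter 16 CpGs and 2 CCGG sites, and the Zrsr1 promoter 10 CpGs and 4 CCGG sites, where the median promoter held 7 CpGs and 52.8% of promoters held a CCGG site. The motif TGCCGC, bound when methylated by ZFP57, a protein that keeps imprints in the early embryo, was searched on both strands and is contained in 11.6% of promoters. It was found once each in the Mcts2 and Nnat promoters and in none of the other 3 shown, which says nothing about binding. Among the promoters that could not be placed, that of Nap1l5 held it 2 times and the others did not hold it.

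The imprinted windows were low in iPSCs and intermediate in both DA libraries. In iPSCs all 7 windows lay under 20%, from 2.82% at Mcts2 to 12.0% at Nnat, with a median of 6.29%. In NESTIN-GFP precursors they ranged from 7.40% at Impact to 48% at Inpp5f with a median of 36.1%, and 3 windows were still under 20%. In iPSC-DA neurons they ranged from 35.2% at Gnas to 63.1% at Nnat with a median of 52.9%, and in mdDA neurons from 32.0% at Gnas to 58.2% at Inpp5f with a median of 53.3%. Levels from 40% to 60% were found in 0 windows of iPSCs, 2 of NESTIN-GFP precursors, 4 of iPSC-DA neurons and 6 of mdDA neurons. The interval held 50% in 0, 1, 2 and 2 windows in the same order. Outside iPSCs 1 of these was always Inpp5f, whose 50 to 130 calls gave a wide interval, so that this count depends on depth. The 2 precursor windows from 40% to 60%, Nnat and Inpp5f, pooled single positions that ranged from 0% to 100%. The window of mdDA neurons outside the band from 40% to 60% was that of Gnas, which also held the exon 1 promoter. At the fewer positions covered in all 4 libraries, 2 iPSC-DA windows had a level from 40% to 60%, those of Mcts2 and Zrsr1, with Impact at 39.5%, Inpp5f at 63.6% and Nap1l5 at 64.8%.

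**Figure D1:**
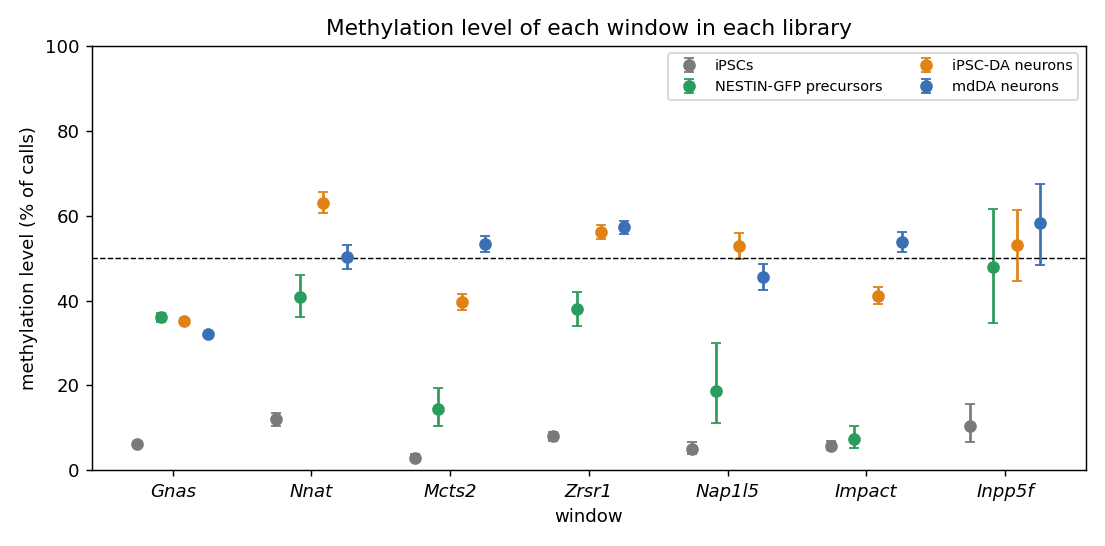
Methylation level of each window (% of calls, vertical axis) in each of the 4 libraries, with 1 point per library and bars for the Wilson 95% interval; the dashed line marks 50%. All grey iPSC points lie at or under 12.0%, while the orange and blue points of the DA libraries lie between 32.0% and 63.1%.

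Single positions showed the same order of libraries. In the 6 windows other than Gnas, 87.2% of 133 positions lay under 20% in iPSCs, 40.6% of 128 in NESTIN-GFP precursors, 2.21% of 136 in iPSC-DA neurons and 0.758% of 132 in mdDA neurons. The share of positions from 40% to 60% was 2.26%, 20.3%, 35.3% and 53.8% in the same order. The positions of iPSC-DA neurons thus spread more widely around 50% than those of mdDA neurons, with 17.6% of them over 80% against 6.06%. NESTIN-GFP precursors were split, with 25.8% of positions at 0% and 14.8% over 80%, from low numbers of calls per position.

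The Gnas complex (2:174105000-174156000 in the coordinates of the files, which match NCBIM37) was read in 3 segments, which are runs of positions covered in all 4 libraries divided at gaps over 1000 bases. The segment on the Nesp side (174109741 to 174111225) had a level of 6.54% in iPSCs (5.65 to 7.55, 27 positions), 83.3% in NESTIN-GFP precursors (81.3 to 85.2, 67 positions), 73.0% in iPSC-DA neurons (71.1 to 74.8, 27 positions) and 43.7% in mdDA neurons (41.6 to 45.9, 27 positions). Both in vitro neural libraries were thus well above 50% here, and the mdDA library was below it. At the Nesp promoter itself, 6 positions gave 10.8%, 87.9%, 67.5% and 47.3% in the same order. The segment on the Nespas and Gnasxl side (174122896 to 174126000), which is a maternally methylated germline region, had 8.45% in iPSCs (7.80 to 9.15), 45% in NESTIN-GFP precursors (43.0 to 47.1), 57.6% in iPSC-DA neurons (56.4 to 58.7) and 50.8% in mdDA neurons (49.6 to 52.1). Of its covered positions, 54 of 90 lay from 40% to 60% in mdDA neurons, 44 of 104 in iPSC-DA neurons, 31 of 117 in NESTIN-GFP precursors and 6 of 103 in iPSCs.

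The last segment of the Gnas complex (174153351 to 174156000) had a level of 4.31%, 10.8%, 17.9% and 19.4% in iPSCs, precursors, iPSC-DA neurons and mdDA neurons, in that order. It held 2 kinds of positions and was divided at its widest gap, of 953 bases, after the values were seen. On the exon 1A side of that gap (174153351 to 174154240) the level was 5.01% in iPSCs (4.43 to 5.66), 19.1% in NESTIN-GFP precursors (17.3 to 21.0), 42.1% in iPSC-DA neurons (40.8 to 43.4) and 45.1% in mdDA neurons (43.7 to 46.5). On the exon 1 side (174155193 to 174156000) it was low in every library, with 3.84%, 0.662%, 4.40% and 3.62% over 107 to 124 positions, and no position there reached 40%. At the 27 to 36 positions of the exon 1 promoter printed above, the levels were 3.33%, 0%, 4.80% and 4.89%. In the DA libraries intermediate positions upstream of the gap were thus followed by mostly unmethylated ones downstream, while in iPSCs both sides were low.

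**Figure D2:**
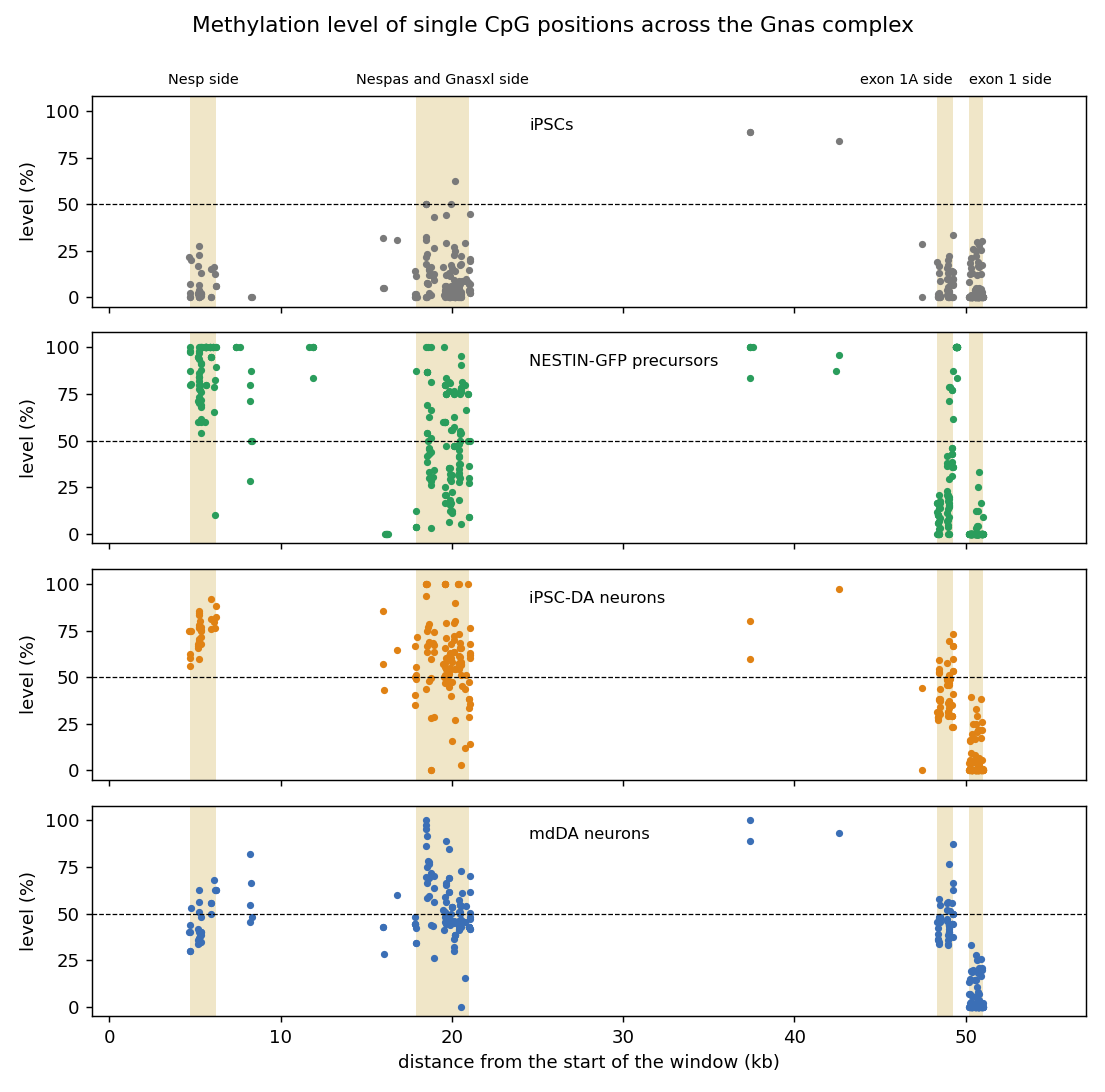
Methylation level (%, vertical axes) of single CpG positions with at least 5 calls against their distance in kb from the start of the Gnas window, with 1 panel per library; shaded bands are the segments named above the first panel and the dashed lines mark 50%. In iPSCs nearly all positions sit near the bottom, while in both DA libraries those on the Nespas and Gnasxl side and the exon 1A side sit around the dashed line and those on the exon 1 side stay near 0; on the Nesp side the iPSC-DA positions lie above the mdDA positions.

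Between the last segment of Gnas and the one before it, a stretch of 27350 bases held 10 to 12 covered positions per library. At 2 short runs there, the levels were high in iPSCs as well. Positions 174142405 and 174142422 together were at 88.9% in iPSCs, 100% in NESTIN-GFP precursors, 94.4% in mdDA neurons and 70% in iPSC-DA neurons, with 10 to 27 calls. Position 174147578 was at 83.9% in iPSCs, 96.2% in NESTIN-GFP precursors, 93.1% in mdDA neurons and 97.2% in iPSC-DA neurons, with 26 to 36 calls. Over the whole stretch, the pooled iPSC level was 19.9% of 719 calls, and 6 of its 12 positions lay under 20%. The pooled level was 79.1% for NESTIN-GFP precursors, 56.9% for mdDA neurons and 65.0% for iPSC-DA neurons. The iPSC calls were thus mostly methylated at the 2 short runs, outside the promoter segments, and mostly unmethylated over the stretch. Whether these runs bear on the low iPSC levels of the promoter segments was not tested.

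The 4 genes inside an intron of a host gene differed from each other in their distance from 50%. Zrsr1, related to the small subunit of the splicing factor U2AF, had 7.98% in iPSCs (2632 calls), 38.0% in NESTIN-GFP precursors (34.0 to 42.1, 553 calls), 56.2% in iPSC-DA neurons (54.6 to 57.9, 3473 calls) and 57.3% in mdDA neurons (55.7 to 58.8, 4009 calls). The intervals of the DA libraries overlapped. At the Zrsr1 promoter, 8 positions were at 51.7% and 50.2% in these libraries, against 8.05% in iPSCs. Mcts2, a copy of Mcts1 in the same family of translation factors, had the lowest level of all windows in iPSCs, 2.82% (2.11 to 3.76, 1562 calls), followed by 14.4% in NESTIN-GFP precursors (10.5 to 19.4, 243 calls), 39.7% in iPSC-DA neurons (37.8 to 41.6, 2548 calls) and 53.3% in mdDA neurons (51.5 to 55.1, 2857 calls). All 15 precursor positions of Mcts2 lie in the promoter printed above, and there the 10 positions of each DA library gave 40.8% and 54.0%. At 8 positions covered in all libraries the precursor level of Mcts2 was 32.0% (23.8 to 41.6), so that its value depends on which positions are counted.

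Nap1l5, of the nucleosome assembly protein family, had 5.10% in iPSCs (3.94 to 6.58, 1078 calls), 52.9% in iPSC-DA neurons (49.8 to 56.0, 994 calls) and 45.5% in mdDA neurons (42.4 to 48.6, 991 calls). The value of 18.8% in NESTIN-GFP precursors rests on 64 calls at 9 positions. Nnat, neuronatin, a small membrane protein of the endoplasmic reticulum in developing brain, had the highest window level of iPSC-DA neurons, but not of mdDA neurons. Its window was at 12.0% in iPSCs (10.5 to 13.6, 1747 calls), 40.9% in NESTIN-GFP precursors (36.1 to 45.9, 386 calls), 63.1% in iPSC-DA neurons (60.7 to 65.5, 1547 calls) and 50.3% in mdDA neurons (47.5 to 53.0, 1253 calls). The precursor level of Nnat depends on which positions are counted. It was 23.6% with at least 10 calls and 33% with adjacent positions left out, both below its interval. The 4 marked CpGs at the start of Nnat had a pooled level above that of the whole window in both DA libraries. For iPSC-DA neurons it was 83.3% of 60 calls, with 15 calls at each CpG. For mdDA neurons it was 80.9% of 68 calls, with 17 at each. Single iPSC-DA positions overlapped, as marked position 157385834 was at 60%. Elsewhere in that window, position 157387595 was at 83.9% of 56 calls and 157387513 at 100% of 8 calls. In iPSCs the 4 CpGs at the start of Nnat were at 4.17% (1.15 to 14.0) of 48 calls. At 3 positions there, NESTIN-GFP precursors had 15.8% (7.44 to 30.4) of 38 calls.

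Impact, an inhibitor of the stress kinase GCN2, was the window in which NESTIN-GFP precursors stayed closest to iPSCs. Its level was 5.76% in iPSCs (4.81 to 6.89, 1926 calls), 7.40% in NESTIN-GFP precursors (5.20 to 10.4, 392 calls), 41.1% in iPSC-DA neurons (39.1 to 43.2, 2164 calls) and 53.8% in mdDA neurons (51.4 to 56.1, 1720 calls). The intervals of the first 2 libraries overlapped. In mdDA neurons 13 of the 15 positions of Impact lay from 40% to 60%, the tightest of the windows with more than 4 positions by the SD of positions, 5.99 points. Inpp5f, a phosphoinositide phosphatase, was covered thinly, by 4 to 10 positions. Its level was 10.4% in iPSCs (6.75 to 15.6, 183 calls), 48% in NESTIN-GFP precursors (34.8 to 61.5, 50 calls), 53.1% in iPSC-DA neurons (44.5 to 61.4, 130 calls) and 58.2% in mdDA neurons (48.3 to 67.4, 98 calls). The iPSC interval lay below those of the other 3 libraries, whose intervals overlapped each other. The precursor level of Inpp5f pooled 4 positions at 0%, 3 from 40% to 60% and 3 over 80%, with a median of 5 calls. It became 0% with adjacent positions left out, so that 48% is not a level shared by its positions.

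**Figure D3:**
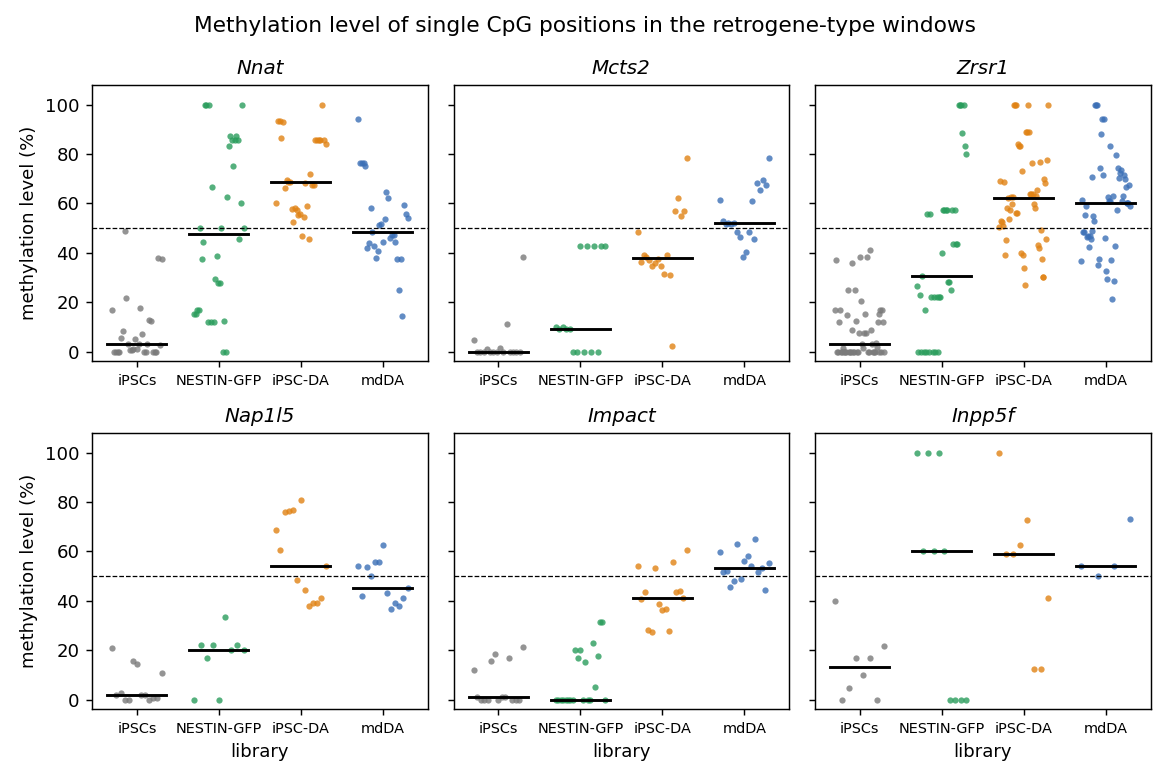
Methylation level (%, vertical axes) of single CpG positions with at least 5 calls in the 6 windows other than Gnas, in order of position within each of the 4 libraries; black bars are medians over positions and dashed lines mark 50%. The iPSC medians lie between 0% and 13.2% and the mdDA medians between 45% and 60%, with the precursor positions falling in separate bands.

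In mdDA neurons the order of the 6 windows other than Gnas, from the lowest, was Nap1l5, Nnat, Mcts2, Impact, Zrsr1 and Inpp5f, and the intervals of every pair of neighbours in this order overlapped. In iPSC-DA neurons the order was Mcts2, Impact, Nap1l5, Inpp5f, Zrsr1 and Nnat. There the intervals of Mcts2 and Impact lay below that of Nap1l5, and the interval of Nnat lay above that of Zrsr1. The iPSC-DA windows thus covered 23.4 points from the lowest to the highest, and the mdDA windows 12.7 points.

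The DA libraries were then compared at the positions covered in both. The Nnat window was 12.8 points higher in iPSC-DA neurons, and 26 of its 29 positions were higher there. Nap1l5 was 7.41 points higher, with 11 of 13 positions. Mcts2 was lower in iPSC-DA neurons, by -13.6 points, with 17 of 18 positions lower, and Impact by -12.7 points, with 14 of 15 positions lower. Zrsr1 differed by -1.56 points, with 25 of 50 positions higher and 22 lower. Inpp5f differed by -2.16 points over 4 positions, although 3 of them were higher in iPSC-DA neurons and 1 lower. Over the Gnas window the difference was 3.22 points, with 149 of 297 positions higher in iPSC-DA neurons and 105 lower. Neighbouring positions share reads and are not independent, so that these counts describe the windows and carry no test.

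**Figure D4:**
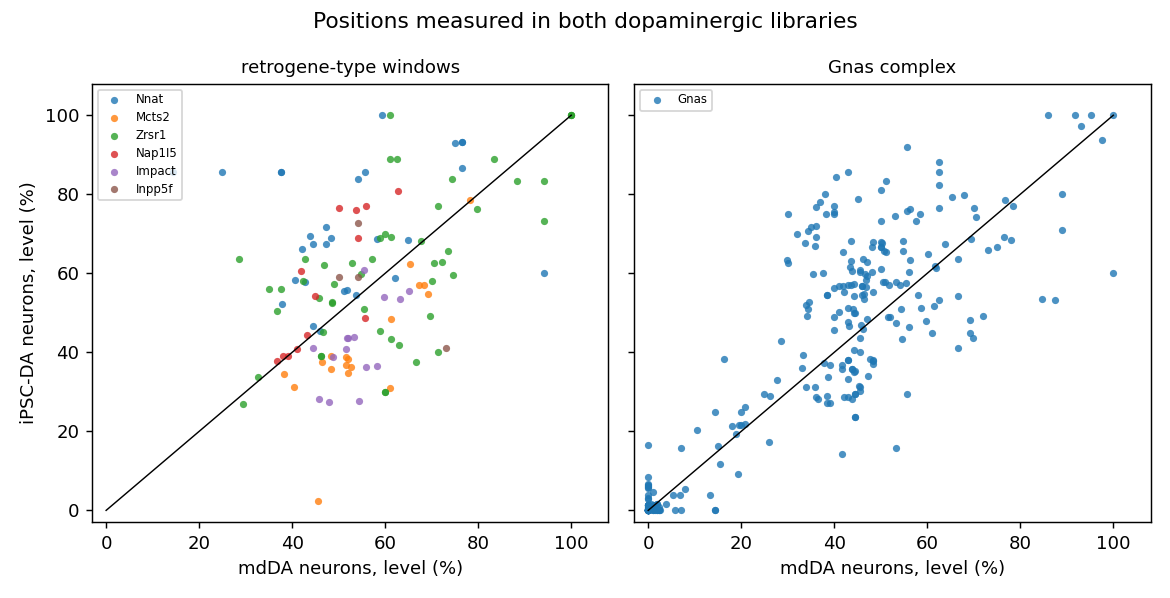
Methylation level of single positions in iPSC-DA neurons (%, vertical axis) against mdDA neurons (%, horizontal axis), for the 6 windows other than Gnas at the left, coloured by window, and for Gnas at the right; 1 point is 1 position with at least 5 calls in both libraries and the line marks equal levels. Nnat and Nap1l5 points lie mostly above the line, Mcts2 and Impact points mostly below it, and Gnas shows a group near 0 and a wide group around 50%.

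To compare libraries across the genome, CpG clusters were formed from neighbouring positions, each read at least 5 times by both DA libraries, wherever at least 10 of them followed each other less than 100 bases apart, which gave 17692 clusters. Of these, 16 overlapped the windows, in Gnas, Mcts2, Zrsr1, Nap1l5 and Impact, and none in Nnat or Inpp5f. Most of the 16 lay in Gnas, those on its exon 1 side included, so that their counts and medians weigh Gnas most. A level from 40% to 60% was found in 0.887% of all 16693 clusters measured in the 4 libraries in mdDA neurons, and in 11 of the 15 imprinted clusters among them. In iPSC-DA neurons 12.2% of all clusters and 6 of the 15 imprinted ones had such a level, in NESTIN-GFP precursors 4.15% and 4, and in iPSCs 1.44% and 0. Intermediate methylation was thus rare among CpG clusters of mdDA neurons, and less so in iPSC-DA neurons, where the imprinted clusters stood apart less. A pattern of under 20% in iPSCs with 40% to 60% in both DA libraries, chosen after the values were seen, was found in 24 clusters, 0.144% of all, and 6 of them lay in the Gnas, Mcts2 and Zrsr1 windows. The median level of the imprinted clusters was 5.42%, 23.9%, 46.3% and 49.2% in iPSCs, precursors, iPSC-DA neurons and mdDA neurons, in that order, beside 4.25%, 9.44%, 8.57% and 5.25% for all clusters.

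**Figure D5:**
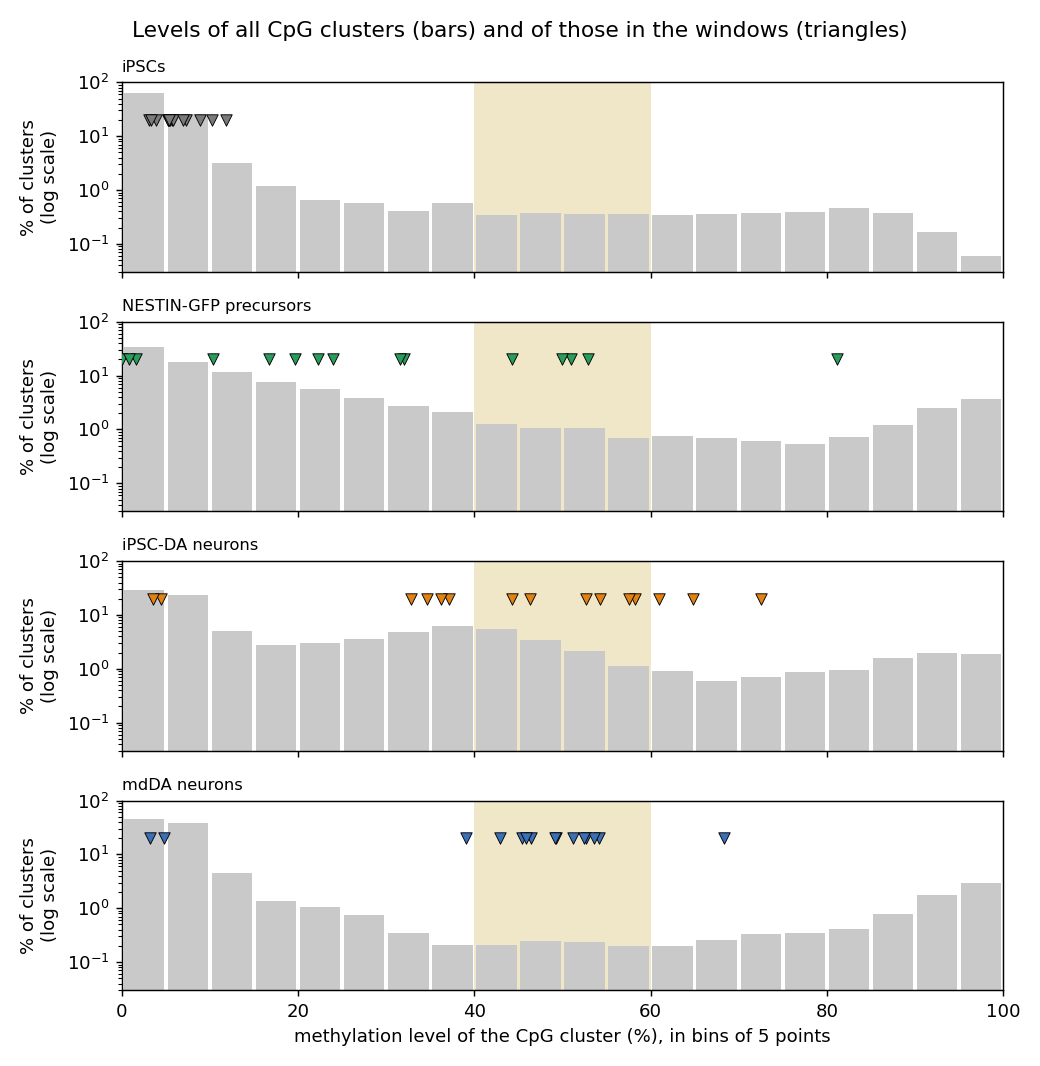
Share of all CpG clusters (%, vertical axes, log scale) by methylation level (%, horizontal axis, bins of 5 points), with 1 panel per library; triangles mark the 15 clusters in the windows at a fixed height, and the shaded band runs from 40% to 60%. The triangles sit at the left in iPSCs and mostly within the band in mdDA neurons, where few other clusters lie.

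Clusters were called different between 2 libraries at an adjusted p-value under 0.05 (Fisher's exact test, two-sided, Benjamini-Hochberg over all clusters) and a difference of at least 20 points. Against mdDA neurons, 14 of the 16 imprinted clusters were lower in iPSCs, where 6.75% of all clusters were, and 0 were higher, where 0.345% of all were. At an unadjusted p under 0.05 by the same test, 0 were higher as well. Against iPSCs, 14 of 16 were higher in iPSC-DA neurons, where 33.8% of all clusters were, and 0 were lower, where 0.0963% of all were, again with 0 at an unadjusted p under 0.05. The median difference of the imprinted clusters was 46.6 points for iPSC-DA neurons over iPSCs, where that of all clusters was 3.01. In both comparisons the 2 clusters not called were those on the exon 1 side of Gnas, and most of the called ones lay elsewhere in Gnas. The comparisons share libraries and are not independent of each other.

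Between the DA libraries, 1 of the 16 imprinted clusters was called higher in iPSC-DA neurons, where 27.6% of all clusters were, and 0 were called lower, where 0.26% of all were. The 1 called cluster lay on the Nesp side of Gnas (174110190 to 174110353, 18 positions), at 72.5% of 1636 calls in iPSC-DA neurons and 39.0% of 1386 calls in mdDA neurons, a difference of 33.5 points (adjusted p = 6.49e-77, Fisher's exact test). At an unadjusted p under 0.05 by Fisher's exact test, 6 clusters were higher and 5 lower in iPSC-DA neurons, all but this 1 by less than 20 points. The largest fall was that of the Impact cluster, from 53.4% to 38.4%, a difference of -15.0 points (adjusted p = 3.38e-14, Fisher's exact test). The cluster that spans the Mcts2 promoter was at 39.7% and 53.3%, a difference of -13.6 points (adjusted p = 3.31e-23, Fisher's exact test). At the positions of Mcts2 covered in all 4 libraries the difference was smaller, -7.86 points. The 2 clusters of Zrsr1 moved in opposite directions, by 4.58 points and by -12.5 points, within an almost equal window level. The median difference of the imprinted clusters was 0.113 points, and that of all clusters was 0.946.

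NESTIN-GFP precursors lay between iPSCs and mdDA neurons at 10 of the 15 imprinted clusters compared, below iPSCs at 3 and above mdDA neurons at 2. Of these clusters, 7 were called lower than in mdDA neurons, where 0.557% of all clusters were, and 1 was called higher, where 14.7% of all were. The 1 higher cluster was again the one on the Nesp side of Gnas, at 81.1% against 39.0% (adjusted p = 5.34e-70, Fisher's exact test). Among those lower were the Impact cluster, at 1.67% against 52.6% (adjusted p = 2.84e-30, Fisher's exact test), and both larger clusters on the exon 1A side, at 10.3% against 45.4% and 16.7% against 45.9%. Of the 5 clusters on the Nespas and Gnasxl side, 1 was called lower, on 54 calls. The smallest cluster on the exon 1A side was at 44.2% of 104 calls against 53.5% of 71 calls, and was not called. Within 1 library the promoter regions of the Gnas complex therefore stood at unequal levels. They were high on the Nesp side, intermediate on the Nespas and Gnasxl side and low at both larger clusters on the exon 1A side.

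The 20 kb on each side of a window served as local background. Around Zrsr1 the flanks were at 6.82% in iPSCs, 18.5% in NESTIN-GFP precursors, 7.39% in mdDA neurons and 7.91% in iPSC-DA neurons, so that the intermediate level of the DA libraries lay in the window and not in its flanks. Around Gnas the flanks were at 5.42% in iPSCs, 39.5% in NESTIN-GFP precursors, 10.6% in mdDA neurons and 8.98% in iPSC-DA neurons. Around Nnat they were at 12.2%, 44.4%, 16.8% and 22.0% in that order, with mdDA before iPSC-DA neurons. The flanks of Mcts2, with 48 to 96 positions, were at 11.5% in iPSCs, 88.1% in NESTIN-GFP precursors, 42.0% in mdDA neurons and 53.8% in iPSC-DA neurons. These levels pool unlike positions. In mdDA neurons 25 of the 48 lay under 20%, 9 over 80% and 6 from 40% to 60%. In iPSC-DA neurons 6 of 65 lay under 20%, 11 over 80% and 19 from 40% to 60%. The flanks of Impact, with 11 to 19 positions, were at 52.7% in iPSCs, 85.0% in NESTIN-GFP precursors, 63.4% in mdDA neurons and 68.7% in iPSC-DA neurons. In iPSCs the Impact window thus lay at 5.76% beside flanks at a pooled 52.7%. Of those 11 flank positions 0 lay from 40% to 60%, 4 over 80% and 2 under 20%. At Inpp5f the flanks held 1 position outside the NESTIN-GFP library, with 18 to 31 calls, and at Nap1l5 they held 0 covered positions.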

How the data were processed

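RRBS was analysed in 4 libraries, 1 for each group of cells. The authors deposited counts of methylated and of unmethylated calls at each position, together with the methylated calls as a percent of both, without normalization, a coverage filter or pooling of libraries. The submitters' processing notes name FastQC, Trim Galore 0.3.5 and Bismark 0.10.1. The build is not given in the sources used here, and the chromosome ends in the files match NCBIM37 (mm9), in which the windows were given. The members and lists were chosen with earlier results of these data known.

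From these values the level of a window was computed as methylated calls over all calls at positions with at least 5 calls, which weights deeply read fragments more. The strands of a CpG were kept as separate positions. Precision is given by Wilson 95% intervals, and NESTIN-GFP precursors had the fewest calls per position (mean 12.3, against 31.0 to 59.9). All 7 windows were named, and in Gnas every segment of at least 5 positions. CpG clusters were compared with Fisher's exact test over all clusters, which needed at least 5 positions covered in both libraries. The code was tested on simulated data, where 200 of 200 changed clusters among 17692 were recovered. Promoter sequences are from RefSeq (GRCm38.p6), were placed by their CpG spacing and brought no coordinates into the files. The Impact window was not searched for a promoter. Alternatives varied the minimum of calls, the positions, windows, strands, coverage limit, band, cluster size and difference. Python 3.11.15, numpy 2.4.6, pandas and scipy were used.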

Additional observations from a re-analysis of the deposited data

How the results depend on the processing

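No iPSC window lay from 40% to 60% under any of the settings, and the count of mdDA windows from 40% to 60% (6) stayed within 1.5 times its value. It was 4 in a band from 45% to 55% and 5 with widened windows or an unweighted mean. With narrowed windows, the shorter Gnas window or a band from 30% to 70% it was 7. The count for NESTIN-GFP precursors (2) became 0 with at least 10 calls, where Nap1l5 and Inpp5f had no positions, 4 with an unweighted mean of positions, 1 with adjacent positions left out, 4 in a band from 30% to 70% and 1 in a band from 45% to 55%. The count for iPSC-DA neurons (4) became 2 at positions covered in all libraries, 7 in the wide band and 2 in the narrow band. The median precursor level (36.1%) became 23.6% with at least 10 calls, 32% at positions covered in all libraries, 40.2% with an unweighted mean, 38% with windows narrowed by 500 bases or the Gnas window ended at its widest gap, 34.1% with widened windows and 20% with adjacent positions left out. The median iPSC level (6.29%) became 5.94% at positions covered in all libraries, 8.08% with an unweighted mean, 7.24% and 5.89% with narrowed and widened windows, 7.71% with the shorter Gnas window and 5.09% with adjacent positions left out, where the iPSC-DA median (52.9%) became 48%. With clusters of at least 5 positions (25 tested), 4 were higher in iPSC-DA than in mdDA neurons, and 23 were lower in iPSCs than in mdDA neurons and 23 higher in iPSC-DA neurons than in iPSCs. With at least 20 positions (5 tested) these counts were 0, 3 and 3, and against mdDA neurons 0 clusters were higher and 2 lower in NESTIN-GFP precursors. With at least 1 call, 2 clusters were higher in iPSC-DA than in mdDA neurons. At a difference of at least 10 points 2 were higher and 3 lower, and at 30 points 2 were lower in NESTIN-GFP precursors than in mdDA neurons. The cause of these shifts was not tested beyond the changed numbers of positions and clusters. Of 306 window levels under other settings, 234 stayed within the interval of the reported value. No paired analysis was possible because each group has 1 library. The shorter Gnas window, the omission of adjacent positions and the median of positions were added after the data were seen. Depth limits Inpp5f in every library and Nap1l5 in NESTIN-GFP precursors.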

Other observations

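The values below were chosen after they were seen and were not tested. In NESTIN-GFP precursors, calls at neighbouring positions of Mcts2 came in equal counts, with 6 of 14 methylated at each of 5 positions from 152512856 to 152512885 and 0 of 27 at 4 positions 1 base before a neighbour in that stretch. In the same library 17 positions of the Gnas complex from 174154446 to 174154483, in the gap between the exon 1A side and the exon 1 side, had 83.3% to 100% of 6 or 7 calls methylated, and the other libraries had under 5 calls there. The Mcts2 positions 1 base apart are the strands of the same CpG, which were kept as separate positions.

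Some single positions differed from nearby ones or between libraries. At Zrsr1, the positions 22872174, 22872184 and 22872202 were methylated in 52 of 52, 52 of 52 and 51 of 51 calls of iPSC-DA neurons and in 36 of 36 calls each of mdDA neurons, while position 22872203, 1 base further, had 33 of 59 and 28 of 80. Positions 1 base apart can be the strands of 1 CpG, so that these need not be different CpGs. On the Nespas and Gnasxl side of Gnas, position 174125514 had 0 methylated of 155 calls in iPSCs, 1 of 18 in NESTIN-GFP precursors, 2 of 72 in iPSC-DA neurons and 0 of 56 in mdDA neurons, while position 174125523 had 51.3% and 43.0% in iPSC-DA and mdDA neurons. At Mcts2, position 152512795 had 3 of 125 calls methylated in iPSC-DA neurons and 151 of 331 in mdDA neurons. At Nnat, position 157386010 had 64 of 131 calls methylated in iPSCs, where position 157386035 had 4 of 131.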
